A study of Sus scrofa with 2 samples.

Results

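Fast spots nearly free of slow myosin were taken from 2 cryosections of pig psoas major, a deep muscle of the loin, measured with the 10x Visium assay. They are the spots in which MYH7, the myosin heavy chain of slow fibres, made up a share of 0.1 or less of the unique molecular identifiers (UMIs) of MYH7, MYH2 and MYH4, with at least 8 such UMIs and fewer UMIs of MYH4 than of MYH2. The rule found 61 spots in section 1 and 102 in section 2, or 163 of 5426 spots in all. They were compared, within each section, with the 237 and 353 fast spots whose MYH7 share was 0.3 to 0.5. Both sections came from untreated psoas major of female Landrace pigs, 1 pig each, and lay in different capture areas of the same slide. The members were selected on the measured UMIs of MYH7, MYH2 and MYH4, so the levels of these 3 genes are given as a description, and the genes were left out of totals and tests. The comparison asks which slow genes vanish together with MYH7 and which stay.

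A muscle fibre is built around 1 main isoform of myosin heavy chain: MYH7 in slow type I fibres, MYH2 in fast oxidative type IIA fibres and MYH4 in the fast glycolytic type IIB fibres. Type IIX fibres, with MYH1, are a further type. The paper did not quantify MYH1 and gave faulty annotation of the reference as the reason. The myosin totals and shares used here leave MYH1 out. Most other parts of the contractile machinery also exist in a slow and a fast form encoded by separate genes, among them the myosin light chains, the 3 troponin subunits, tropomyosin and the calcium pump of the sarcoplasmic reticulum. A Visium spot is a small round area of tissue and can hold parts of several fibres, so a spot with few MYH7 UMIs is not a single fast fibre.

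In the chosen spots MYH7 had 39 and 71 UMIs (sections 1 and 2), MYH2 had 550 and 1082, and MYH4 had 110 and 206. MYH7 thus made up 5.58% and 5.22% of myosin UMIs in the chosen spots, against 39.3% and 39.6% at a share of 0.3 to 0.5. On the scale used below, CPM (UMIs per gene scaled to a common total, with a TMM factor for each sum), MYH7 stood at 748 and 740 CPM in the chosen spots, against 5154 and 5430 CPM at 0.3 to 0.5. Of the UMIs of both fast myosins, MYH4 held 16.7% and 16.0% in the chosen spots, against 8.88% and 8.57% at 0.3 to 0.5, so the chosen spots were also the richer in MYH4. MYH2 and MYH4 are related genes that lie close together on chromosome 12 (55252974 to 55278820 and 55190545 to 55216294, Sscrofa11.1), and the division of reads between them is uncertain. MYH7 lies on chromosome 7 (75650841 to 75672908).

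The other fast markers fitted the label in both sections: MYLPF, the fast regulatory light chain, had 32256 and 36869 CPM in the chosen spots, against 7823 and 9040 CPM at a MYH7 share of 0.75 or more, and TNNT3, fast troponin T, had 19726 and 21784 CPM in the chosen spots, against 5129 and 5944 CPM there.

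The chosen spots were shallow. They held a median of 764 and 830.5 UMIs and 296 and 313.5 genes per spot, against 1333 and 1579 UMIs and 467 and 505 genes at 0.3 to 0.5, or 0.573 and 0.526 of the UMIs. Their median of myosin UMIs was 11 and 11.5, against 17 and 20. A spot with 0 MYH7 UMIs among 11 myosin UMIs allows a share of up to 27.3%, and the exact binomial 95% interval of 1 in 11 runs from 0.23% to 41.3%, so single spots are placed only roughly and the results below rest on sums over spots (intervals and floors cover counting error only). Of the chosen spots, 22 and 45 had no MYH7 UMI and 19 and 34 had no MYH4 UMI. They were 3.98% (95% interval 3.06 to 5.08) and 4.91% (4.02 to 5.93) of the spots with at least 8 myosin UMIs. Over the series, the sections held 3633249 and 5382677 UMIs in 2487 and 2939 deposited spots. The sections shared 2104 barcodes, which are positions within a capture area, and 1 of them was among the chosen spots of both.

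Spot by spot, the slow lists without SLN made up a median of 1.6% and 1.35% of UMIs in the chosen spots, against 2.28% and 2.38% at 0.3 to 0.5 and 9.43% and 9.07% at 0.75 or more. SLN, a gene of the slow lists described below, was set apart after its values were seen, because it held 37.1% and 38.1% of the slow-list UMIs in the chosen spots, against 3.25% and 3.77% at 0.75 or more. With SLN the medians were 2.5% and 2.18% in the chosen spots, against 3.15% and 3.28% at 0.3 to 0.5. Without it the lowest chosen spots had 0.376% and 0.233% and the highest 3.2% and 3.13%, and none was at 0. The ranges of both fast classes overlapped widely. The fast contractile list made up 16.3% and 16.2% of UMIs in the median chosen spot, against 13.2% and 13.6% at 0.3 to 0.5.

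**Figure D1:**
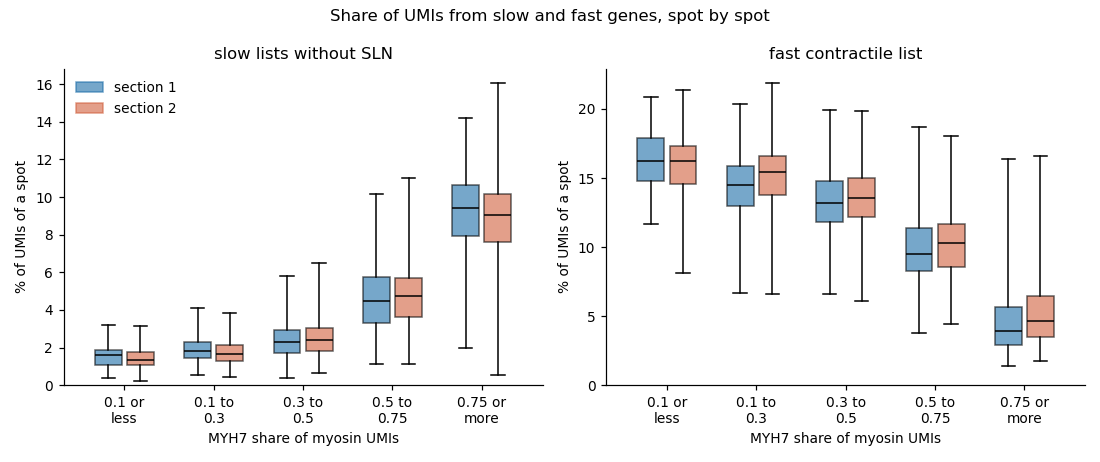
Share of a spot's UMIs (percent, y axis) from the slow lists without SLN (left) and the fast contractile list (right), for 5 classes of spots ordered by the MYH7 share of their myosin UMIs (x axis), in section 1 (blue) and section 2 (orange); boxes span the quartiles with the median as a line, and whiskers reach the lowest and highest spot. The median slow share was 1.6% and 1.35% in the chosen spots at the left and 9.43% and 9.07% in the slowest spots at the right, and no chosen spot was without slow UMIs.

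UMIs were then summed per section and class, and the sums were tested with edgeR's quasi-likelihood test, with the section as a block and Benjamini-Hochberg adjustment over all tested genes. Of 4424 genes tested, 61 differed between the chosen spots and those at 0.3 to 0.5 at an adjusted p below 0.05, which is 1.38% of the genes. The chosen spots were higher for 13 genes (0.294%) and lower for 48 (1.08%). All 61 had the same sign in both sections, which is no separate support, since the calls rest on the same 2 sections. Of the 48, 18 were lower by more than 2-fold, and no gene was higher by more than 2-fold. The median log2 fold change over all tested genes was -0.17, with 59.1% of genes below 0, so a value near -0.17 is the middle of this comparison. Scaling by the number of spots in place of UMIs, which keeps the lower depth of the chosen spots in the values, moved that median to -1.07 and gave 1 gene higher and 1365 lower. Fewer fibres of a type in a spot and less RNA per fibre cannot be told apart in these sums.

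The slow-list genes differed in their calls and in the sizes of their changes, and differences between genes were not tested. A missing call can reflect few UMIs. Of the 22 tested genes of the 3 slow lists, 9 were called lower and none higher, at a background of 1.08% lower among all genes. Both classes were chosen by MYH7, and the lists with earlier results known. Falls of genes that go with MYH7 over spots were thus favoured by the choice. The counts and p-values describe these falls and are no independent support. This limit also holds for the other list counts below. The 9 were 7 of 10 tested sarcomere genes (MYL2, MYL3, TNNT1, TNNI1, TNNC1, TPM3, MYBPC1), 1 of 2 calcium handling genes (ATP2A2) and 1 of 10 Z-disc and stretch response genes (FHL1). The lists' median log2 fold changes were -0.90 for the sarcomere, -0.39 for calcium handling and -0.60 for the Z-disc list. The slow lists also named MYL6B, MYH6, ACTC1, PLN and CASQ2, which are not analysed here.

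MYL3, the essential light chain of slow myosin (chromosome 13, 29730271 to 29735616), had the largest fall of the called slow genes. It had 4 and 5 UMIs in the chosen spots, or 76.8 and 52.1 CPM, against 336 and 305 CPM at 0.3 to 0.5, and the class values did not overlap. Its log2 fold change was -2.37 ± 0.37 (SE, edgeR adjusted p = 7.47e-08). With so few UMIs the size of this change is loosely known, and among spots with no MYH4 UMI it was no longer called (log2 fold change -2.17, edgeR adjusted p = 0.117).

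MYL2, the regulatory light chain of slow myosin (chromosome 14, 32205953 to 32213848), rested on many more UMIs. It had 81 and 154 UMIs in the chosen spots, or 1554 and 1604 CPM, against 3320 and 3257 CPM at 0.3 to 0.5, with a log2 fold change of -1.05 ± 0.11 (SE, edgeR adjusted p = 4.86e-17). The step was much the same in both sections, and it was -1.55 with members limited to a share of 0.05, -0.98 with spots matched for depth (in part, with median UMIs of 1016 and 1202 against 1199 and 1409) and -1.26 among spots with no MYH4 UMI, with a call each time. MYBPC1, the slow form of myosin binding protein C, fell less, with 1938 and 1875 CPM in the chosen spots, against 2978 and 3097 CPM at 0.3 to 0.5 (log2 fold change -0.68 ± 0.11 SE, edgeR adjusted p = 1.3e-07).

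On the thin filament, all 3 slow troponin subunits and slow tropomyosin fell. TNNI1, the inhibitory subunit, had 1880 and 1563 CPM in the chosen spots, against 3336 and 3480 CPM at 0.3 to 0.5 (log2 fold change -1.02 ± 0.11 SE, edgeR adjusted p = 1.12e-16). TNNT1, the tropomyosin-binding subunit, had 1458 and 1719 CPM in the chosen spots, against 3000 and 3108 CPM (-0.91 ± 0.11 SE, edgeR adjusted p = 3.95e-13). TNNC1, the calcium-binding subunit, had 2149 and 2302 CPM in the chosen spots, against 3634 and 4138 CPM (-0.80 ± 0.10 SE, edgeR adjusted p = 4.57e-12). The classes did not overlap for any of these 3 genes. TPM3, slow tropomyosin, had 633 and 792 CPM in the chosen spots, against 1472 and 1513 CPM (-1.02 ± 0.15 SE, edgeR adjusted p = 1.16e-09). The remaining members of the sarcomere list were not called: MYH7B, a relative of MYH7, had a log2 fold change of -0.89 and MYOM3, an M-band protein, of -0.71, both on 6 UMIs or fewer in the chosen spots, while MYOM2, the other M-band protein of the list, had 537 and 583 CPM in the chosen spots, against 518 and 563 CPM.

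The 2 tested calcium handling genes parted. ATP2A2, the calcium pump of slow and cardiac muscle, had 307 and 302 CPM in the chosen spots, against 556 and 610 CPM at 0.3 to 0.5 (log2 fold change -0.95 ± 0.21 SE, edgeR adjusted p = 0.00117). The call rested on 16 and 29 UMIs and was lost, with fewer chosen spots, with 15 or more myosin UMIs (log2 fold change -1.20, edgeR adjusted p = 0.102), with a limit of 0.05 (-1.10, adjusted p = 0.0667), with spots matched for depth (-0.81, adjusted p = 0.191) and among spots with no MYH4 UMI (-0.77, adjusted p = 0.566). SLN, or sarcolipin, a small inhibitor of the pump that was placed in the slow list, had 8385 and 9074 CPM in the chosen spots, against 7509 and 8023 CPM at 0.3 to 0.5. It was not called (log2 fold change 0.17 ± 0.08 SE, edgeR adjusted p = 0.415), but it was called higher in 6 of the 16 other fits, at log2 fold changes of 0.21 to 0.28, and lower when scaled by spots, at -0.73. In the slowest spots SLN had only 3293 and 3599 CPM, so its level in these sections was higher in the fast spots than at the slow end.

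In the Z-disc and stretch response list FHL1, a LIM-domain protein of muscle, was called, with 2437 and 2615 CPM in the chosen spots, against 4187 and 4401 CPM at 0.3 to 0.5 (log2 fold change -0.75 ± 0.10 SE, edgeR adjusted p = 1.66e-11). No other gene of the list was called in the main fit. MYOZ2, the slow calsarcin of the Z-disc, had 38.4 and 93.8 CPM in the chosen spots, against 150 and 182 CPM (-1.19, edgeR adjusted p = 0.143). It was called lower with 5 or more myosin UMIs (-1.18, edgeR adjusted p = 0.0453) and when scaled by spots (-2.10). LMCD1, a LIM-domain regulator, had a log2 fold change of -1.21 (adjusted p = 0.218), and CSRP3, muscle LIM protein, of -1.07 (adjusted p = 0.223). On 2 to 9 UMIs per section for MYOZ2 and 3 and 9 for CSRP3, such changes were not told from 0 in the main fit. LMOD2, SMPX and XIRP1 had log2 fold changes of -0.19, -0.18 and 0.04, PDLIM1 and ANKRD2 of -0.58 and -0.61, and ANKRD1 of 0.42 on 1 UMI in each section.

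**Figure D2:**
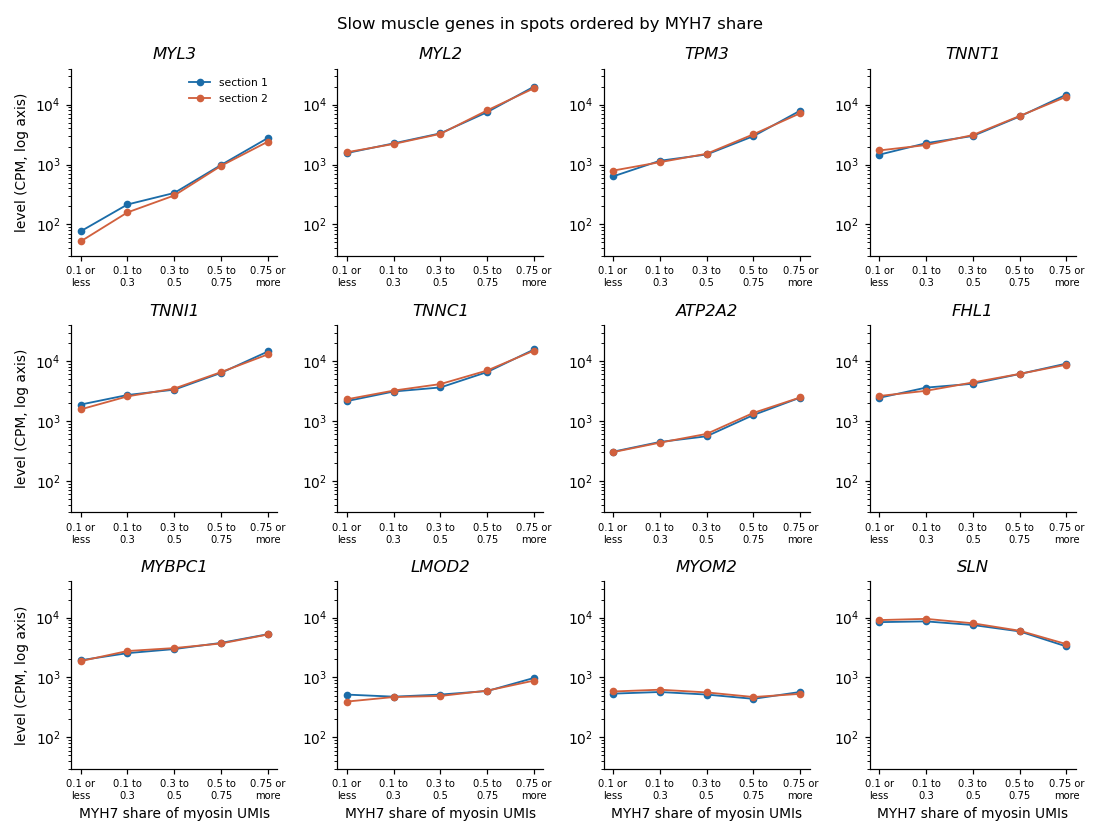
Level (CPM, log axis) of 12 slow-list genes in 5 classes of spots ordered by the MYH7 share of myosin UMIs (x axis), with section 1 in blue and section 2 in orange; each point is 1 sum of UMIs. MYL3 had 76.8 and 52.1 CPM in the chosen spots at the left and 2775 and 2413 CPM in the slowest spots at the right, while MYOM2 stayed between 439.9 and 625 CPM and SLN was lower in the slowest spots.

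How far each gene had gone was read against the slow end, the spots with a MYH7 share of 0.75 or more (723 and 813 spots). This is a description with no test, since both ends were chosen by MYH7, which itself stood at 3.29% and 3.53% of its level there. MYL3 stood at 2.77% and 2.16%. MYOZ2 stood at 3.54% and 8.72%, MYL2 at 7.76% and 8.52% and TPM3 at 7.96% and 11%, and the means of these 4 genes were under 10%. Over all tested genes with a UMI in the chosen spots, 14 of 4216 were under 10%, and of the 584 with at least 20 such UMIs only MYL2, TPM3 and 1 gene with no symbol, ENSSSCG00000047852, were.

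A middle group fell to between 10% and 50% of the slow level. TNNT1 stood at 9.91% and 12.6%, ATP2A2 at 12.5% and 12.2%, TNNI1 at 13% and 12.1%, and TNNC1 at 13.7% and 15.3%. FHL1 at 26.8% and 30% and MYBPC1 at 36.7% and 36% kept more than the troponins in both sections. The middle group held 14 genes, among them CSRP3, ANKRD2, LMCD1, PDLIM1 and MYH7B, which had 1 to 9 UMIs in a section.

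On average, 4 slow-list genes kept 50% or more of their slow level, against 3433 of the 4216 tested genes with a UMI in the chosen spots. They were SMPX, a small muscle protein of the costamere (38.3% and 68.7%), XIRP1, an actin-binding repeat protein (75.7% and 65.7%), MYOM2 (93.7% and 109%) and SLN (255% and 252%). MYOM2, on 28 and 56 UMIs, thus lay between 439.9 and 625 CPM over all 5 classes. In these sections MYOM2 did not mark the slow end, and SLN was higher in the fast spots. Their place in this group reflects the choice of the list and does not show slow genes that stay. Over the 5 classes, 12 of the 22 genes rose at every step of the MYH7 share in both sections, as did 79 of all 4424 tested genes.

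**Figure D3:**
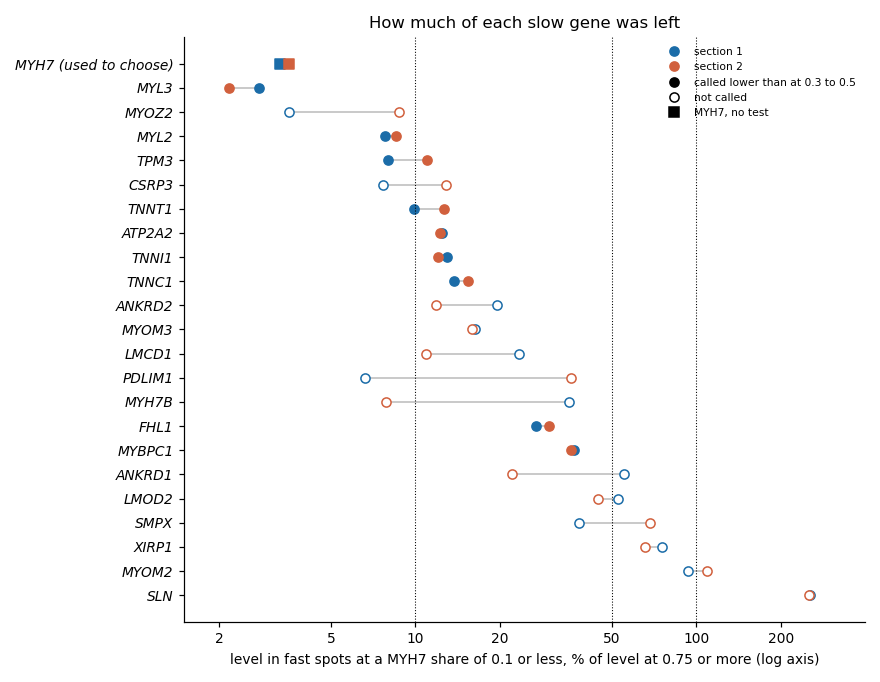
Level in the chosen fast spots as a percent of the level at a MYH7 share of 0.75 or more (x axis, log scale) for MYH7 and 22 slow-list genes (y axis), by section; filled points were called lower than at 0.3 to 0.5, open points were not called, and dotted lines mark 10%, 50% and 100%. MYL3 lay at 2.77% and 2.16%, the troponins between 9.91% and 15.3%, and SLN at 255% and 252%.

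Slow transcripts were also measured in chosen spots with no MYH7 UMI. In the 22 and 45 chosen spots with no MYH7 UMI, the slow lists without SLN took 1.5% and 1.34% of UMIs, against 1.67% and 1.49% in the 39 and 57 chosen spots with a MYH7 UMI. MYL2 was lower in the spots with no MYH7 UMI, at 1238 and 1254 CPM, against 1989 and 1720 CPM, and MYL3 had 0 and 1 UMI there, against 4 and 4. TPM3 was lower there too, at 437 and 567 CPM against 839 and 875 CPM. So was TNNT1, at 1238 and 1642 CPM against 1834 and 1689 CPM. TNNI1, at 2185 and 1583 CPM against 2114 and 1489 CPM, was not lower there. TNNC1, at 2695 and 2120 CPM against 2331 and 2303 CPM, was higher in section 1 and lower in section 2. So was ATP2A2, at 437 and 269 CPM against 311 and 307 CPM. The spots with no MYH7 UMI were shallower, with median UMIs of 521 and 745 against 849 and 998. These are descriptions, since the division was made on MYH7 (CPM here carry no TMM factor).

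At the edge of the rule, the 25 and 33 spots just inside (shares over 0.08 to 0.1) had 1.15% and 1.09% of UMIs from the slow sarcomere list, and the 20 and 26 just outside (over 0.1 to 0.12) had 1.34% and 1.24%.

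Pairs of genes for the same part give a measure that no scaling of the sums can change. The share of the slow gene, or of ACTN2 (an alpha-actinin of all fibres) in its pair with the fast ACTN3, was lower in the chosen spots in both sections for all 10 pairs, which were chosen after the data were seen. MYL2 made up 4.6% (exact 95% binomial interval 3.67 to 5.68) and 4.17% (3.55 to 4.87) of MYL2 and MYLPF UMIs in the chosen spots, against 11% (10.5 to 11.7) and 10.8% (10.4 to 11.3) at 0.3 to 0.5. MYL3 made up 0.431% (0.118 to 1.1) and 0.23% (0.0747 to 0.536) of its pair with MYL1, against 2.05% (1.71 to 2.44) and 1.68% (1.46 to 1.94). TNNT1 took 6.88% and 7.31% of its pair with TNNT3 in the chosen spots, against 15.0% and 14.8%. MYBPC1 took 41.4% and 39.8% of its pair with MYBPC2, the fast form, against 56.0% and 55.0%, so the slow form of this thick-filament protein was still a large part of the pair in spots nearly free of MYH7. The intervals of both classes were apart in both sections for 9 pairs and overlapped for MYOZ2 with MYOZ1, at 1.23% and 2.37% in the chosen spots, against 4.62% and 5.17%.

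**Figure D4:**
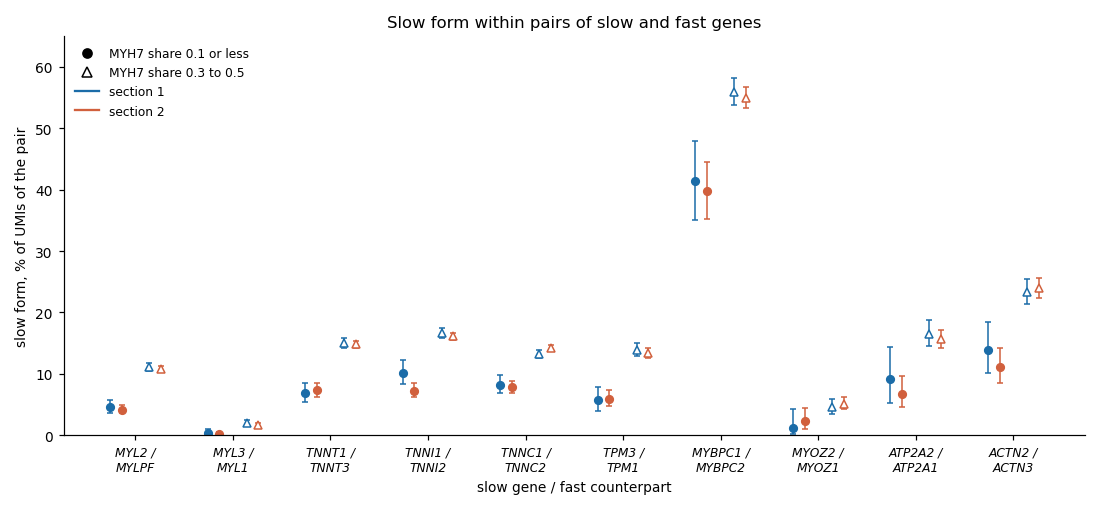
Share of the first gene in the UMIs of 10 pairs, a slow gene with a fast one or ACTN2, of all fibres, with ACTN3 (percent, y axis; pairs along the x axis) in the chosen spots (filled circles, left of each pair) and at a MYH7 share of 0.3 to 0.5 (open triangles, right), with section 1 in blue, section 2 in orange and exact 95% binomial intervals as bars. In the chosen spots MYL3 lay at 0.431% and 0.23% and MYBPC1 at 41.4% and 39.8%, and the intervals of both classes overlapped only for MYOZ2.

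Some fast contractile genes were higher in the chosen spots on the TMM scale, by small steps, and none was when sums were scaled by spots. Of 16 tested, 5 were called higher, at a background of 0.294%, and all 16 lay above 0 with a median of 0.23 (TMM scaling), whereas 15 of 16 lay below 0 when sums were scaled by the number of spots. That scaling lowers genes about alike, and the list's median lay above that of all genes under both, at 0.23 against -0.17 with TMM and at -0.67 against -1.07 by spots. MYLPF had 32256 and 36869 CPM in the chosen spots, against 26586 and 26885 CPM at 0.3 to 0.5 (log2 fold change 0.37 ± 0.07 SE, edgeR adjusted p = 2.05e-05). ACTN3, the alpha-actinin of fast Z-discs, had 4759 and 4646 CPM in the chosen spots, against 3532 and 3574 CPM (0.39 ± 0.09 SE, edgeR adjusted p = 0.00163). TPM1 (0.29), MYL1 (0.25) and TNNT3 (0.25) were the other 3, and fast troponin I and C, TNNI2 and TNNC2, had log2 fold changes of 0.07 and 0.06 and were not called. The call of all 5 was lost in the fits limited to spots with 15 or more myosin UMIs, to a limit of 0.05, to spots matched for depth or to spots with no MYH4 UMI. For MYLPF the log2 fold change was then 0.06 matched for depth and 0.21 with no MYH4 UMI, and it turned to -0.0062 with 15 or more myosin UMIs. These fits kept 8 and 25, 23 and 47, 30 and 41, and 19 and 34 chosen spots. The chosen spots also had the lower depth and larger MYH4 share given above, and the part of these in the result was not tested. ACTN2, the alpha-actinin of all fibres and the only called member of 14 tested sarcomere genes common to fibre types, fell in the chosen spots, with 768 and 583 CPM, against 1080 and 1127 CPM (log2 fold change -0.76 ± 0.16 SE, edgeR adjusted p = 0.000276).

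The glycolysis list also took in PGM1, phosphoglucomutase. Of its 12 tested genes, 6 were called higher, at a background of 0.294%. With TMM scaling 11 lay above 0, with a median of 0.29, whereas with a scaling by spots all 12 lay below 0. GAPDH had 37456 and 48402 CPM in the chosen spots, against 28796 and 31833 CPM at 0.3 to 0.5 (log2 fold change 0.50 ± 0.07 SE, edgeR adjusted p = 1.32e-10). ALDOA (0.44), ENO3 (0.40), PFKM (0.37), LDHA (0.31) and PGM1 (0.59) were the other 5, and PGM1 had the largest rise of all called genes. None of the 6 kept its call with 15 or more myosin UMIs, with the limit of 0.05, matched for depth or with no MYH4 UMI, and GAPDH had a log2 fold change of 0.06 matched for depth. None of 10 tested genes of the glycogen metabolism list, which did not hold PGM1, was called.

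Several mitochondrially encoded transcripts fell in the chosen spots. The 13 mitochondrially encoded genes made up 10.6% and 9.86% of UMIs in the chosen spots, against 13.9% and 13.7% at 0.3 to 0.5. Of these 13, 6 were called lower, at a background of 1.08%, among them the cytochrome oxidase subunits COX2, COX3 and COX1 and the ATP synthase subunit ATP6. COX2 had 22834 and 25545 CPM in the chosen spots, against 37197 and 37126 CPM (log2 fold change -0.61 ± 0.07 SE, edgeR adjusted p = 5.35e-15). COX3 (-0.55), ATP6 (-0.56), COX1 (-0.46), CYTB (-0.38) and ND3 (-0.37) were the others, and the step was smaller than that of the slow troponins (log2 fold changes -0.80 to -1.02), a difference that was not tested. At the slow end the group made up 19.5% and 18.9% of UMIs. Spots over a mitochondrial limit had been removed before the comparison, but none of the 163 chosen spots was lost or gained by that filter.

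Among nuclear-encoded oxidative genes, 5 of 34 tested genes of complexes II to V and cytochrome c were called lower, at a background of 1.08%. They were COX5B (691 and 698 CPM in the chosen spots, against 1176 and 1182 CPM, log2 fold change -0.76), COX4I1 (-0.61), COX7A1 (-0.49), ATP5F1A (-0.66) and UQCRFS1 (-0.97). Of 31 tested genes of complex I, none was called, which is near the background, and 27 lay below 0, against 59.1% of all tested genes, with a median log2 fold change of -0.31. None of 19 tested genes of the TCA cycle and none of 21 of fatty acid uptake and oxidation was called, with medians of -0.40 and -0.65, on low counts. CKMT2, mitochondrial creatine kinase, fell in the chosen spots, with 729 and 635 CPM, against 1034 and 1107 CPM (-0.69 ± 0.16 SE, edgeR adjusted p = 0.00164).

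**Figure D5:**
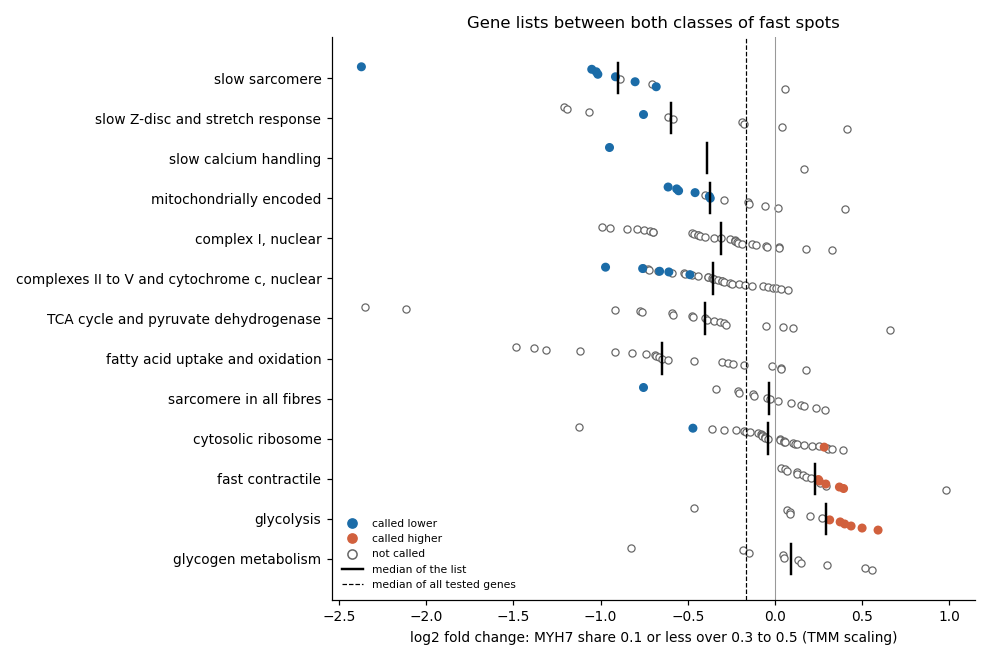
Log2 fold change (x axis, chosen fast spots over spots at 0.3 to 0.5, TMM scaling) of each tested gene of 13 lists (y axis); blue points were called lower, orange points higher and open points not called, with the median of each list as a bar and the median of all tested genes, -0.17, as a dashed line. The slow sarcomere list had its median at -0.90 and the fast contractile and glycolysis lists at 0.23 and 0.29, and these positive medians turned to -0.67 and -0.62 when sums were scaled by the number of spots.

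The 10 largest falls also took in genes outside the lists. COQ8A, which is needed to make coenzyme Q in mitochondria, had 211 and 188 CPM in the chosen spots, against 486 and 480 CPM at 0.3 to 0.5 (log2 fold change -1.30 ± 0.25 SE, edgeR adjusted p = 5.13e-05). GOT2, the mitochondrial aspartate aminotransferase, had 269 and 198 CPM in the chosen spots, against 422 and 496 CPM (-1.06). NNT, the transhydrogenase of the inner mitochondrial membrane, and MTARC2, an enzyme of the outer one, had 3 UMIs each in the chosen spots, at 0.189 (exact 95% interval 0.0384 to 0.568) and 0.202 (0.041 to 0.609) of their level at 0.3 to 0.5 over both sections. By section NNT stood at 39.7% and 9.2% and MTARC2 at 33.2% and 11.5%, on 2 and 1 UMIs each. Of the 16 fits that tested them, NNT was called in 11 and MTARC2 in 7.

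No UMI at all was found for 4 called genes in the chosen spots of either section. FRZB, a secreted Wnt antagonist, had 33 and 47 UMIs at 0.3 to 0.5 and was at least 3.95-fold lower in the chosen spots, taking 3 counts over both sections as the floor. AQP4, a water channel of the fibre membrane, was at least 3.16-fold lower, PTBP1, a splicing regulator, at least 2.42-fold lower, and TFRC, the transferrin receptor, at least 2.32-fold lower. These floors take no account of the genes having been picked out for a count of 0. PTBP1 and TFRC passed the threshold narrowly (edgeR adjusted p = 0.0446 and 0.0472). PTBP1 and TFRC fall outside the rule for named genes and were named after their values were seen. RAB10, a small GTPase of vesicle traffic, had 0 and 2 UMIs in the chosen spots, against 34 and 86, a ratio of 0.112 (0.0135 to 0.415). FRZB, AQP4 and RAB10 were each called in 12 of the 16 fits that tested them. Over all tested genes, 208 of 4424 had no UMI in the chosen spots, so a count of 0 is common at this depth.

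Of the 48 genes called lower, 38 were higher at the slow end than at 0.3 to 0.5, against 49.6% of all tested genes, and all 13 called higher were lower at the slow end. The other 10 included genes that are not particular to muscle fibres. HLA-DRA, a chain of MHC class II, had 1 and 4 UMIs in the chosen spots, or 19.2 and 41.7 CPM, against 139.7 and 128 CPM at 0.3 to 0.5. C4BPA, a complement regulator, had 115 and 83.3 CPM in the chosen spots, against 322 and 172 CPM. HLA-DRA was called in 10 of the 16 fits that tested it and C4BPA in 8 of 17. TMSB10 (log2 fold change -0.93) and TMSB4X (-0.90), which bind actin monomers, CST3 (-0.89), a protease inhibitor, and EEF1A1 (-0.89), a translation factor, were named after their values were seen.

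Of 7 marker lists of other cells, 5 had a median below that of all genes, and none of their genes was called, against 1.38% of all tested genes. The fibroblast and matrix list made up 0.244 ± 0.022% of UMIs in the chosen spots and 0.33 ± 0.039% at 0.3 to 0.5 (SD, n = 2 sections), and none of its 15 tested genes was called (13 below 0, median -0.52). The endothelial list made up 0.033 ± 0.0035% in the chosen spots and 0.06 ± 0.0083% at 0.3 to 0.5 (0 of 10 called, median -0.83). The macrophage and leukocyte list made up 0.129 ± 0.021% in the chosen spots and 0.161 ± 0.011% at 0.3 to 0.5 (0 of 6 called, median -1.07). Smooth muscle markers made up 0.0408 ± 0.0054% in the chosen spots and 0.0601 ± 0.0044% at 0.3 to 0.5 (0 of 9, median -0.73), and adipocyte markers 0.0491 ± 0.011% in the chosen spots and 0.0686 ± 0.014% at 0.3 to 0.5 (0 of 5, median -0.40). The satellite cell list rested on CDH15 (log2 fold change 1.22, not called) and the Schwann cell list on 2 genes (0 called, median 1.1). The satellite cell marker PAX7 was at 0 UMIs in both classes, the endothelial PECAM1 had 0 and 2 UMIs in the chosen spots, against 26 and 54, and the fibroblast gene DCN had 18 and 47, against 219 and 290. The part of these cells in the falls of HLA-DRA, C4BPA and the actin-binding genes was not tested. Without the upper quartile of spots for the matrix list, all 9 slow calls were kept.

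For the remaining lists the background among all tested genes was 1.38% called, with 1.08% lower and 0.294% higher. None of 13 genes of atrophy and proteolysis was called and, of 7 genes of phosphocreatine and adenine nucleotides, CKMT2 alone. HSPB7, a small heat shock protein of muscle, was the 1 of 13 stress genes called, at 95.9 and 208 CPM in the chosen spots, against 349 and 343 CPM (log2 fold change -1.04, or -1.84 in section 1 alone). Of 33 ribosomal protein genes, RPLP2 was called lower (-0.47, with a call in 7 of 17 fits) and RPLP1 higher (0.28, or -0.62 per spot). Of the list of oxygen binding and fibre-type regulators, ACTN3, counted above, was called and none of the other 11 tested genes was. PPP1R1A, an inhibitor of protein phosphatase 1, was higher at 2897 and 4084 CPM in the chosen spots, against 2543 and 2786 CPM (0.42, or -0.49 per spot). CA3, the carbonic anhydrase of slow muscle, fell in the chosen spots to 2264 and 2094 CPM, against 2997 and 3188 CPM (-0.52), and was named after its values were seen. Of the called genes, 6 have no symbol.

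Each section contributed 1 sum to each class, which left 4 residual degrees of freedom. The prior degrees of freedom of the fit were infinite, so each gene's own spread had no weight against the spread shared over genes. With the section as a block, differences between the 2 pigs common to all classes were taken out. The p-values thus measure class steps against that shared spread in the sums of 2 pigs, and nothing wider.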

How the data were processed

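Poly(A) RNA of 2 cryosections of female Landrace psoas major, 15 µm thick, was captured on a 10x Visium slide. The authors deposited whole UMI counts with no normalization, obtained from Space Ranger 1.1 and an adapted Sscrofa11.1 reference to which older models of MYH2 and MYH4 had been added. Sources disagree on the annotation release. Porcine carrier RNA was part of the libraries, and the handling of its reads is not stated in the sources read. The study also removed spots by hand, and that selection was not used here.

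Spots in which the 13 mitochondrially encoded genes exceeded 25% of UMIs (8 in section 1 and 2 in section 2) and then the 2% with the fewest UMIs were left out, which kept 2429 and 2878 spots. Genes found in under 15 spots per section, 5 haemoglobin genes, MYH7, MYH2 and MYH4 were not tested. Of 31780 genes, 15086 had no symbol, of which 796 got one from a table of gene names. Spots with at least 8 myosin UMIs were put in 5 classes by MYH7 share (0.1, 0.3, 0.5 and 0.75 as limits), which gave 10 sums of UMIs over the 2 sections. The test was that of edgeR 4.0.16 under R 4.3.3 (quasi-likelihood test, TMM factors, a minimum count of 10 in filterByExpr, section as a block, since its 5 classes share 1 pig, threshold 0.05 after Benjamini-Hochberg adjustment). SEs are derived from the F statistic. DESeq2 1.42.0, other limits and spot selections, and other scalings were the alternatives. The fit was also run on counts simulated with 1 fixed dispersion and no spread particular to a section or spot. That run meets the fit's own assumptions, so it cannot vouch for the p-values here. The study tested single spots with a Wilcoxon test, which was not followed because spots of a section are not replicates.

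Members and gene lists were chosen with earlier results of these data known. Named genes are the 10 largest called changes in each direction that agree in sign between sections and have a symbol and at least 50 CPM in the higher class, all tested slow-list genes, and up to 4 genes of each other list with the smallest p. Coordinates come from RefSeq for Sscrofa11.1, matched by symbol. A mean ± SD is over the sections.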

Additional observations from a re-analysis of the deposited data

How the results depend on the processing

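The main count was 61 called genes (13 higher, 48 lower, 9 slow genes lower, 5 fast contractile genes higher). The 9 slow calls were all kept in 12 of the 16 other fits, 8 were kept with 15 or more myosin UMIs, with the 0.05 limit and with depth matching, and 7 with no MYH4 UMI (the last, and UMI totals with no factor, were added after the data were seen). Called genes numbered 38 with 15 or more myosin UMIs, 28 with depth matching, 27 with no MYH4 UMI, and 1366 when scaled by spots. Lower calls numbered 85 with no filter on low counts, 27 with depth matching, 27 with no MYH4 UMI, and 1365 by spots, where 19 slow genes were lower. Higher calls numbered 25 with the DESeq2 Wald test, 35 with 5 or more myosin UMIs, 41 with no MYH4 condition, 29 with 3 and 33 with 2 classes, 22 with UMI totals, 7 with no replicate block, 6 without matrix-rich spots, 1 each with no filter (GAPDH), the 0.05 limit, depth matching (an unnamed gene in both) and by spots (HSF2, named after its value was seen), and 0 with 15 or more myosin UMIs or no MYH4 UMI by edgeR (377 and 203 genes in either direction had an unadjusted p under 0.05). Higher fast contractile genes numbered 9 with no MYH4 condition, 8 and 9 with 3 and 2 classes, 2 without matrix-rich spots or with no replicate block, and 0 with no filter, 15 or more myosin UMIs, the 0.05 limit, depth matching, no MYH4 UMI and by spots.

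Scaled by spots, log2 fold changes turned for PGM1 (-0.32), GAPDH (-0.40), ALDOA (-0.47), PPP1R1A (-0.49), ENO3 (-0.50), ACTN3 (-0.51), PFKM (-0.53), MYLPF (-0.53), LDHA (-0.59), TPM1 (-0.61), MYL1 (-0.65), RPLP1 (-0.62), RPL10 (-0.60), MYOM2 (-0.85), SLN (-0.73), TPM2 (-0.67), CKM (-0.74), GYG1 (-0.61), AK1 (-0.61), AMPD1 (-0.54), ADSS1 (-0.67) and UBB (-0.75), since that scaling keeps the lower UMIs per spot. With 15 or more myosin UMIs, which left 8 and 25 chosen spots, they turned for PGM1 (-0.13), ACTN3 (-0.0041), MYLPF (-0.0062), TPM1 (-0.00043), MYL1 (-0.14) and RPLP1 (-0.15), and with depth matching for MYL1 (-0.021). The cause was not tested. UMIs per spot in the chosen spots were 0.55 of those at 0.3 to 0.5 (0.526 to 0.573 without either section) and 0.655 with 15 or more myosin UMIs. The median remaining level of the 22 slow genes, averaged over sections, was 16.0% (14.1 to 17.8% without either section) and 9.33% with 15 or more myosin UMIs. With no replicate block 49 genes were called, all among the 61. Leaving out a section left no residual degrees of freedom, so only log2 ratios were computed: no called value reversed, 2 values moved without section 1 and 14 without section 2, among them MYOZ2 (-1.90), PDLIM1 (-2.44), SMPX (-0.60) and HSPB7 (-1.84) without section 2. A floor of 3 counts over the 163 chosen spots equals 20.3 CPM.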
